A study of Homo sapiens with 9 samples.

Results

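Collagens are the triple-helical proteins of the extracellular matrix. The collagen genes described here were all genes whose platform symbol has the form COL, a number, A and a number, each read through the probe set with the highest mean over the 9 arrays, without a filter on dim probe sets and using only probe sets assigned to a single gene. This gave 43 collagen genes of 19775 genes measured. They comprised 11 genes of fibrillar collagens, 6 genes of the basement membrane collagen type IV and 26 genes of other collagens. The rule reads gene names and the brightness of probe sets, and no difference between groups. COL17A1 was not analysed here.

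SW1783 is an established human glioma cell line. The cells were transfected for 24 h with 50 nM of a miRNA duplex using a lipid reagent, and total RNA was measured on Affymetrix arrays. One group received miR-376a*A and another miR-376a*G. The third received a control miRNA (miR-control, called control below), and the labels name 3 biological replicates of each, so each group had 3 arrays. All groups shared the cell line, the transfection reagent, the dose and the time, and the control cells were transfected too. The level of the transfected duplex is not analysed here. The forms named A and G differ in a base of the seed: A is the genomic base and G stands for inosine, the product of A-to-I RNA editing, which pairs like G.

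The seed of a miRNA, bases 2 to 8 from its 5′ end, is the part that pairs with most target transcripts, usually lowering their level. The genomic form of miR-376a* is called miR-376a-5p in current naming. It is printed because the groups differ in which form of it the cells received; RefSeq places it in MIR376A1 at chr14:101040788-101040809 on the plus strand of GRCh38.p14, and the capitals mark the seed.
hsa-miR-376a-5p: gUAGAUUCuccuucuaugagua

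Collagen chains assemble in threes in the endoplasmic reticulum, where prolyl and lysyl residues are hydroxylated and chaperones guard the helix. Fibrillar collagens form the cross-banded fibrils of connective tissue, type IV collagen forms the sheet-like network of basement membranes, and the other families link, decorate or anchor these structures. In brain most collagen belongs to vessels and meninges, and cultured glioma lines often also make fibrillar collagens.

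The deposited values are signal intensities on a linear scale. For the tests they were turned into log2(signal + 16) and normalized between arrays, and limma was fitted to all 19775 genes, so differences are in units of that log2 scale and come out too small for dim genes. A gene is said to have risen, fallen or changed only where its limma p-value, Benjamini-Hochberg adjusted across the 19775 genes, was under 0.05. Of the 43 collagen genes, 30 had a mean at or above the median of all probe sets: 9 fibrillar, 5 basement membrane and 16 other genes. The signal of a probe set also depends on its probes, so levels are compared between arrays and not between genes.

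The arrays had median signals of 18.8 to 24.0. Control replicate 1 stood apart: its highest rank correlation with any other array was 0.941, where the other arrays reached 0.969 to 0.970, and its maximum signal was 7191 against 3601 to 4374. In it, 852 genes differed by 2-fold or more from the average of the remaining control arrays, which differed that much from each other in 32 genes. Among the collagen genes these numbers were 2, COL13A1 (-1.65 on the log2 scale) and COL4A4 (1.03), and 0. The counts of genes past the threshold are therefore given with and without this array. Of the astrocyte and glioma markers listed, 5 of 10 reached the median of all probe sets. Vimentin (VIM, 2218 to 4401) and CD44 (2026 to 3996) were bright, while the astrocyte-defining GFAP (1.30 to 3.75) and S100B (1.00 to 2.64) were close to 0 on every array. All 7 mesenchymal markers reached the median.

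Among the collagen genes at or above the median signal, COL4A1 was the only one that passed the threshold on all arrays: it fell with miR-376a*G. In miR-376a*A cells 1 of 43 collagen genes passed the threshold against control, the dim COL6A6, which was lower; over all genes 1.71% passed. In miR-376a*G cells 2 of 43 passed, COL4A1 and COL6A6, both lower, against 2.35% of all genes. Between the miRNA forms 1 of 43 passed, COL4A1, which was higher with miR-376a*A, against 1.36% of all genes. A count of 1 or 2 in 43 lies near these backgrounds and is no result about the collagen genes as a group. At an unadjusted p under 0.05 the counts were 3, 2 and 4 of 43 in the same order, where 11.8%, 14.1% and 8.69% of all genes passed, and these are not above the background either.

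Without control replicate 1 the backgrounds were 6.06%, 8.28% and 4.92% of all genes, and 2, 2 and 3 of the 43 collagen genes passed. The genes differed from those above: COL6A2 (0.47, limma adjusted p = 0.0455) and COL6A6 passed for miR-376a*A against control. COL4A1 and COL4A5 (-0.24, limma adjusted p = 0.0499) passed for miR-376a*G against control. COL14A1 (0.47, limma adjusted p = 0.0168), COL4A1 and COL4A5 (0.26, limma adjusted p = 0.0288) passed between the forms, all higher with miR-376a*A. COL4A1 was thus past the threshold with and without that array in both comparisons that involve miR-376a*G.

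Against control the median difference of the 43 collagen genes was 0.04 with miR-376a*A and 0.0024 in miR-376a*G cells, and 0.03 between the forms. Over all genes the medians were -0.0032, -0.0031 and 0.0013. For the fibrillar genes the medians were -0.03, -0.06 and 0.03, for the basement membrane genes 0.11, 0.0060 and 0.14, and for the others 0.04, 0.02 and 0.02. No direction is read from these, since the basement membrane medians for miR-376a*A were -0.02 against control and -0.0030 against miR-376a*G when all probe sets of a gene were averaged.

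**Figure D1:**
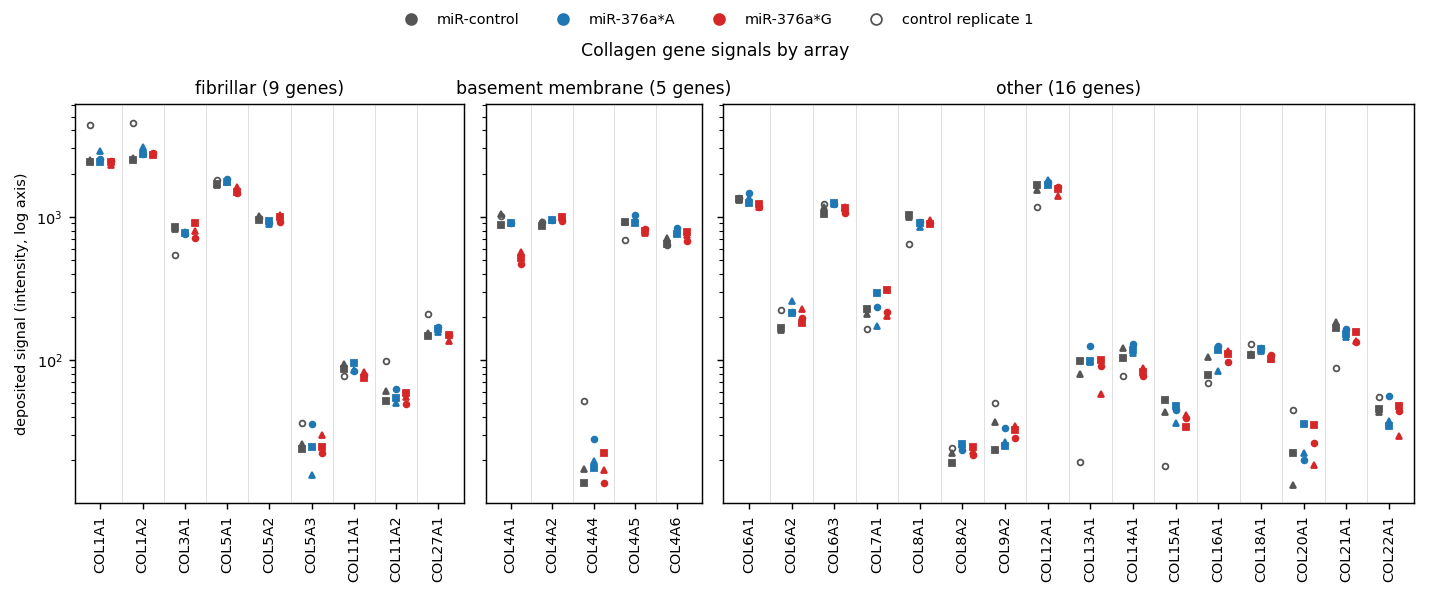
Deposited signal (linear intensity on a log axis) of the 30 collagen genes at or above the median of all probe sets, by class. Circles, squares and triangles are replicates 1, 2 and 3 of control (grey), miR-376a*A (blue) and miR-376a*G (red) cells, and the open circle is control replicate 1. In COL4A1 the 3 miR-376a*G arrays (471 to 566) lie clearly below the other 6 (874 to 1047). In COL5A1, COL6A1 and COL18A1 they also lie below the other 6, by much smaller gaps.

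COL4A1 encodes the α1 chain of type IV collagen, which winds with the α2 chain of COL4A2 into the most widespread basement membrane collagen. Its signal was 471, 512 and 566 on the miR-376a*G arrays. It was 1018, 874 and 1047 on the control arrays and 899, 910.3 and 907 on the miR-376a*A arrays. All miR-376a*G arrays were below all others, while the miR-376a*A arrays lay inside the control range. The means were 516 ± 48.1 with miR-376a*G, 979.6 ± 92.9 in control and 905 ± 5.89 with miR-376a*A (SD, n = 3).

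COL4A1 was 1.89-fold lower with miR-376a*G than in control cells, a log2 difference of -0.92 (SE 0.10, limma adjusted p = 0.00189). With miR-376a*A it was 1.74-fold above its level with miR-376a*G (0.80, SE 0.10, limma adjusted p = 0.00429), which is the direct test of the difference between the forms. With miR-376a*A against control the difference was -0.12 (SE 0.10, limma adjusted p = 0.71) with a 95% interval of -0.34 to 0.10, so a fall as large as the one with miR-376a*G lies outside the interval. By size, the fall with miR-376a*G ranked 59 among 216 falling genes, and the difference between the forms ranked 69 among 148 genes higher with miR-376a*A. Whether fewer cells carried the transcript or each cell carried less of it cannot be told apart in pooled RNA.

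A second COL4A1 probe set, examined after the first had been seen, gave the same picture. Its signals were 154, 151 and 146 with miR-376a*G, 239, 267 and 299 in control and 232, 259.7 and 252 with miR-376a*A. Here too the miR-376a*G arrays were all below the other 6. In a fit of all 54675 probe sets its differences were -0.80 (limma adjusted p = 0.00329) for miR-376a*G against control, 0.68 (limma adjusted p = 0.00934) between the forms and -0.12 (limma adjusted p = 0.72) for miR-376a*A against control. Of the 112 collagen probe sets 1, 2 and 2 passed in that fit for miR-376a*A against control, miR-376a*G against control and the forms. The 2 between the forms were those of COL4A1. The share of all probe sets past the threshold in that fit is not given here, so these counts are not read as a result about collagens. Without control replicate 1, the numbers of the 112 that passed were 6, 3 and 5 for miR-376a*A against control, miR-376a*G against control and the forms, where 3.24%, 4.36% and 2.61% of all probe sets did.

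COL4A2, the partner chain, did not pass in any comparison. Its signal was 938, 1003 and 991 with miR-376a*G, 952, 947 and 953 with miR-376a*A and 920.4, 863 and 925 in control. All 6 miRNA arrays were slightly above the 3 control arrays. The differences from control were 0.11 (95% interval -0.04 to 0.27, limma adjusted p = 0.53) with miR-376a*G and 0.05 (-0.10 to 0.21, limma adjusted p = 0.83) with miR-376a*A. A second COL4A2 probe set had signals of 287, 299 and 372 with miR-376a*G, 258, 277 and 308 with miR-376a*A and 386, 305 and 283 in control, which overlapped between all groups.

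The change of COL4A1 relative to COL4A2 was then taken within each array, a measure chosen after the values had been seen. The log2 difference of COL4A1 minus COL4A2 was -0.96, -0.97 and -0.83 on the miR-376a*G arrays, -0.09, -0.05 and -0.07 on the miR-376a*A arrays and 0.12, 0.01 and 0.20 on the control arrays. Its absolute size reflects the probes, and only its change between groups can be read. It was lower by -1.03 with miR-376a*G than in control and higher by 0.85 in miR-376a*A cells than in miR-376a*G cells, and the 3 groups did not overlap. The measure restates the values above within each array, so it is given as a description with no test, and it does not show that COL4A2 was unchanged.

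COL4A1 and COL4A2 lie head to head: their start sites in RefSeq are 127 bases apart on opposite strands, and the stretch between them serves as promoter for both. It is printed because only one of the genes it serves passed the threshold. The window below runs from 250 bases before to 50 bases after the COL4A1 start, on the minus strand of GRCh38.p14 at chr13:110307108-110307407, and the capitals mark the 126 bases that lie between the start sites.
COL4A1 window: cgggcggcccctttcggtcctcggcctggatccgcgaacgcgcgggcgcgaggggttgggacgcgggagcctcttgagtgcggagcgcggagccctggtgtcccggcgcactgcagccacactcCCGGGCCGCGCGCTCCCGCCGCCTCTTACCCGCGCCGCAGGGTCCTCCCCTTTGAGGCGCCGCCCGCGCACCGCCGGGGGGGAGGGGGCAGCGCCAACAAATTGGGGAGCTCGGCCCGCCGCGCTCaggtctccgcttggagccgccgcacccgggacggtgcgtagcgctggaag

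The GC content of this window was 76.7%, where the median over all promoter windows of the same length was 58.7%. Searching both strands, the GC box letters GGGCGG occurred 2 times in it, 1 of them in the capitals, and were present in 45.0% of the 35116 windows of the table. The letters CCAAT occurred 1 time, in the capitals, and were present in 34.6% of all windows. The letters TATAAA did not occur and were present in 11.5% of all windows. Of the 43 collagen windows, which belong to 31 collagen genes, 24 held GGGCGG, 13 held CCAAT and 7 held TATAAA. These matches describe the letters and not the use of any site.

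**Figure D2:**
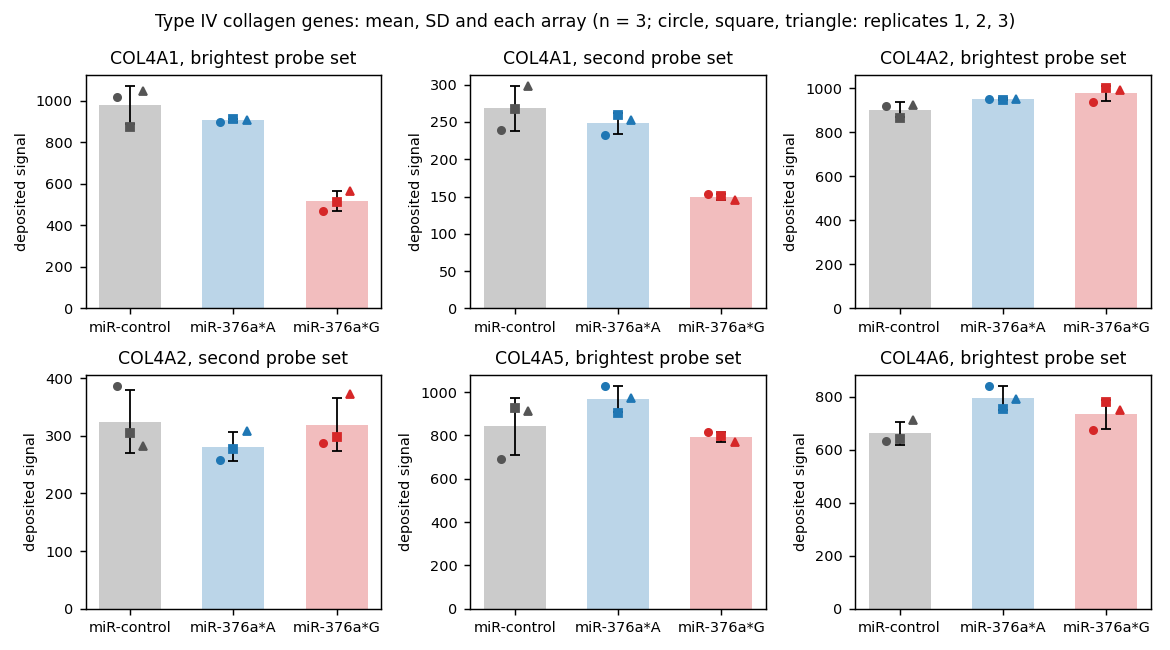
Deposited signal (linear intensity) of the type IV collagen genes COL4A1 and COL4A2, each by both of its brighter probe sets, and of COL4A5 and COL4A6 by the brightest. Bars are means, whiskers SD (n = 3) and points the arrays of each group. Both COL4A1 panels show a lower miR-376a*G bar (516 ± 48.1 and 149.9 ± 4.06) and the COL4A2 panels do not.

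The other type IV chains sit in the same arrangement, COL4A4 with COL4A3 (start sites 419 bases apart) and COL4A6 with COL4A5 (380 bases apart). COL4A5, the α5 chain mutated in Alport syndrome, had signals of 817, 796 and 770.1 with miR-376a*G, 1027, 906 and 972 with miR-376a*A and 690.5, 925 and 912 in control. The arrays of the miRNA forms did not overlap, and control replicate 1 was the lowest of all 9. The difference between the forms was 0.27 (SE 0.12, limma adjusted p = 0.55) on all arrays in the equally weighted fit. It passed without that array, as given above, with array weights and in a fit of only the 6 arrays of these forms. Against control it differed by 0.17 with miR-376a*A and by -0.10 in miR-376a*G cells, neither past the threshold.

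COL4A6, the α6 chain, had signals of 841, 754 and 793 with miR-376a*A, 675, 779 and 750.1 under miR-376a*G and 632, 642 and 713 in control. The miR-376a*A arrays were all above the control arrays, by 0.24 (SE 0.09, limma adjusted p = 0.32), and the miR-376a*G difference was 0.13 (limma adjusted p = 0.57). COL4A4, the α4 chain, was near the median, with 28.1, 17.6 and 19.8 with miR-376a*A, 14.0, 22.4 and 17.1 under miR-376a*G and 51.6, 14.0 and 17.5 in control. Control replicate 1 alone stood high, and the groups overlapped. Of the 5 basement membrane genes besides COL4A1, 0 passed limma for miR-376a*G against control on all arrays and 0 had an unadjusted p under 0.05, with differences of -0.24 to 0.21. Over all genes 2.35% and 14.1% did, so counts of 0 in 5 genes do not show that these genes were unaffected. COL4A5 passed without control replicate 1, where 8.28% of all genes did.

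In the fibrillar class, read by the brightest probe sets, 0 of 11 genes passed limma in any comparison, with or without control replicate 1, and 0 had an unadjusted p under 0.05 on all arrays. Over all genes 1.71%, 2.35% and 1.36% passed for miR-376a*A against control, miR-376a*G against control and the forms. The unadjusted shares were 11.8%, 14.1% and 8.69%. Without control replicate 1, 6.06%, 8.28% and 4.92% of all genes passed. Beside these shares, counts of 0 in 11 genes do not show that the class was unaffected. Other fibrillar probe sets passed without that array in the fit of all 54675 probe sets: one of COL1A1 (0.40, limma adjusted p = 0.0166) and one of COL1A2 (0.66, limma adjusted p = 0.0489) exceeded control in miR-376a*A cells. One of COL5A2 was lower with both forms (-0.42 and -0.39, limma adjusted p = 0.0136 and 0.0173). COL1A1 and COL1A2 encode the chains of type I collagen, the main fibrillar collagen. COL1A1 had signals of 2541, 2421 and 2861 with miR-376a*A, 2441, 2408 and 2304 under miR-376a*G and 4333, 2422 and 2484 in control. COL1A2 had 2741, 2730.1 and 3072 with miR-376a*A, 2791, 2699 and 2738 under miR-376a*G and 4540.2, 2488 and 2566 in control. For both genes control replicate 1 lay far above the other 8 arrays in deposited signal, as did VIM (4401) and CD44 (3996) on that array. After normalization between arrays the differences from control were -0.03 and -0.10 for COL1A1 and 0.06 and 0.06 for COL1A2, miR-376a*A first. Their 95% intervals lay within -0.203 to 0.179. The probe sets of these genes disagreed: the other bright COL1A1 probe sets ran from -0.09 to 0.38 with miR-376a*A and from -0.33 to 0.38 in miR-376a*G cells against control, and a dimmer one of COL1A2 gave 0.82 and 0.53, none past the threshold on all arrays.

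COL3A1, which forms thin fibrils with type I collagen, had signals of 753, 771 and 782 with miR-376a*A, 706, 898 and 794 under miR-376a*G and 542, 851 and 820.4 in control. The groups overlapped, and control replicate 1 was the lowest array. The minor fibrillar chains of type V, which set fibril diameter, are encoded by COL5A1, COL5A2 and COL5A3. COL5A1 had 1819, 1743 and 1738 with miR-376a*A, 1475, 1499 and 1603 under miR-376a*G and 1804, 1698 and 1659.9 in control, so all miR-376a*G arrays lay below the other 6. That difference was -0.11 (limma adjusted p = 0.67) against control and 0.18 (limma adjusted p = 0.70) between the forms and did not pass.

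COL5A2 had signals of 909, 936 and 895 with miR-376a*A, 924, 998 and 1021 under miR-376a*G and 974, 944 and 1020.2 in control. Its miR-376a*A arrays were all below control, by 0.12 on the log2 scale (-0.12, limma adjusted p = 0.63). COL5A3 was dimmer, with 35.6, 24.7 and 15.9, then 22.3, 24.7 and 30.1, then 36.4, 23.9 and 25.8 in the same group order, and overlapped throughout. The type XI chains belong to the core of cartilage fibrils. COL11A1 had 84.6, 95.2 and 85.1 with miR-376a*A, 78.7, 74.9 and 82.8 under miR-376a*G and 78.0, 86.2 and 94.1 in control, and COL11A2 had 62.6, 54.6 and 50.3, then 49.6, 58.7 and 55.1, then 98.3, 52.0 and 61.2. COL27A1, a fibrillar collagen of cartilage, had 170.2, 166 and 158, then 151, 149.8 and 137, then 209.5, 147 and 155. For COL11A1 and COL27A1 the miR-376a*A arrays were above the miR-376a*G arrays without overlap (0.14 and 0.17 on the log2 scale, limma adjusted p = 0.92 and 0.95).

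Type VI collagen forms beaded filaments around cells from chains of COL6A1, COL6A2 and COL6A3. COL6A1 had signals of 1453, 1240.2 and 1344 with miR-376a*A, 1161, 1232 and 1170.1 under miR-376a*G and 1346, 1326 and 1306 in control. All miR-376a*G arrays were below all others, but the differences of -0.14 from control (limma adjusted p = 0.55) and 0.15 between the forms (limma adjusted p = 0.78) did not pass. The other 4 COL6A1 probe sets at or above the median went the other way for miR-376a*G against control, with 0.21 to 0.58, and the dimmer ones ran from -0.16 to 0.15.

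COL6A2 had signals of 216, 214 and 259.6 with miR-376a*A, 195, 181 and 226 under miR-376a*G and 223, 167 and 163 in control. Control replicate 1 was above both other control arrays, and without it the miR-376a*A arrays lay above control. The difference was 0.29 (SE 0.16, limma adjusted p = 0.55) on all arrays and 0.47 (SE 0.11, limma adjusted p = 0.0455) without that array, while a second bright probe set gave 0.01. COL6A3 had 1221, 1242 and 1222 with miR-376a*A, 1057, 1152 and 1176 under miR-376a*G and 1228, 1042 and 1172 in control. Its miR-376a*A arrays were above the miR-376a*G arrays, by 0.09 (limma adjusted p = 0.96), and the control range overlapped both.

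COL6A6, a further chain of this family, was at the bottom of the signal range: 1.99, 1.56 and 1.55 with miR-376a*A, 2.03, 1.15 and 2.92 under miR-376a*G and 7.89, 4.56 and 6.63 in control. All 6 miRNA arrays were below all control arrays. The differences were -0.31 (SE 0.06, limma adjusted p = 0.0407) and -0.29 (SE 0.06, limma adjusted p = 0.0492), miR-376a*A first. The probe set lies below the median of all probe sets, where a signal need not stem from the transcript, and its other probe set gave -0.07 and -0.03. The call was kept in 3 of 18 alternative settings for miR-376a*A and in 2 of 18 for miR-376a*G, among which the adjusted p reached 0.172 and 0.195.

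The fibril-associated collagens bind to the surface of fibrils. COL12A1 had signals of 1757, 1658 and 1796 with miR-376a*A, 1615, 1558 and 1387 under miR-376a*G and 1176, 1664 and 1536 in control, with control replicate 1 lowest. COL14A1 had 129.8, 118 and 112 with miR-376a*A, 77.4, 82.5 and 88.1 under miR-376a*G and 76.97, 104 and 121 in control. In both genes the miR-376a*A arrays lay above the miR-376a*G arrays without overlap. For COL14A1 the difference between the forms was 0.46 (SE 0.14, limma adjusted p = 0.26) on all arrays, and a second bright probe set gave 0.43 (limma adjusted p = 0.30). Control replicate 1 is in neither group compared and enters through the shared estimate of the spread; without it the difference was 0.47 (SE 0.09, limma adjusted p = 0.0168). On the second probe set the 3 miR-376a*A arrays (50.5, 50.6 and 53.8) were above all others, by 0.55 against control (limma adjusted p = 0.11, and 0.0400 without control replicate 1).

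COL16A1 had signals of 126, 117 and 83.9 with miR-376a*A, 97.3, 110.4 and 116 under miR-376a*G and 69.1, 78.6 and 105 in control, and COL21A1 had 165, 153 and 144, then 135, 157 and 135, then 87.9, 168 and 184. COL22A1 had 56.4, 34.8 and 37.5, then 44.3, 47.8 and 29.4, then 55.3, 45.8 and 43.6. All 3 genes overlapped between every pair of groups. COL9A2, a cartilage collagen chain, had 33.4, 25.3 and 26.7, then 28.8, 32.3 and 34.5, then 49.9, 23.7 and 37.1, and COL20A1 had 20.0, 36.0 and 22.5, then 26.3, 35.2 and 18.4, then 45.1, 22.6 and 13.6. Neither separated the groups, and control replicate 1 was the highest array of both.

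COL7A1, whose protein forms the anchoring fibrils beneath epithelia, had signals of 234, 292 and 174 with miR-376a*A, 215, 306 and 204 under miR-376a*G and 166, 226 and 210.3 in control, with full overlap. The multiplexins of vessel basement membranes release anti-angiogenic fragments such as endostatin, which comes from COL18A1. COL18A1 had 121, 120.3 and 117 with miR-376a*A, 108, 102 and 101 under miR-376a*G and 130.1, 109 and 111 in control. Its miR-376a*G arrays were below all others, with -0.15 against control (limma adjusted p = 0.64). COL15A1 had 45.1, 48.1 and 36.6, then 39.7, 34.2 and 41.3, then 18.2, 52.3 and 43.6 in the same group order, with control replicate 1 alone low.

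COL8A1 and COL8A2 encode the short-chain network collagen of vessel walls and cornea. COL8A1 had signals of 920.0, 902 and 848 with miR-376a*A, 907, 887 and 956 under miR-376a*G and 649, 1026 and 991 in control, so that control replicate 1 was lowest and the other control arrays highest. COL8A2 had 23.6, 26.0 and 25.7, then 21.8, 24.8 and 23.2, then 24.3, 19.2 and 22.6, with overlap. COL13A1, a transmembrane collagen of adhesion sites, had 126, 99.3 and 96.5 with miR-376a*A, 90.4, 101 and 58.0 under miR-376a*G and 19.5, 99.3 and 80.1 in control. With miR-376a*A it differed from control by 0.81 (SE 0.41, limma adjusted p = 0.49), the highest value of the 43 on all arrays, and by 0.27 without control replicate 1. Control replicate 1 decided this value.

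The other 12 collagen genes below the median, beside COL6A6, had signals of 0.476 to 27.6, and the brightest by mean was COL10A1 of hypertrophic cartilage (22.6, 16.8 and 18.2 with miR-376a*A, 14.5, 18.7 and 16.5 under miR-376a*G and 18.4, 24.5 and 22.97 in control). None of these 12 passed in limma, with or without control replicate 1. Over all genes 1.71%, 2.35% and 1.36% passed on all arrays, and 6.06%, 8.28% and 4.92% without that array. Over the 13 dim genes the unadjusted p was under 0.05 for 2, 1 and 1 genes in the comparisons of miR-376a*A with control, miR-376a*G with control and the forms with each other. Over all genes the shares were 11.8%, 14.1% and 8.69%, so these counts are no result about the dim genes. The differences of the 13 dim genes ran from -0.31 to 0.24, from -0.29 to 0.22 and from -0.28 to 0.12.

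**Figure D3:**
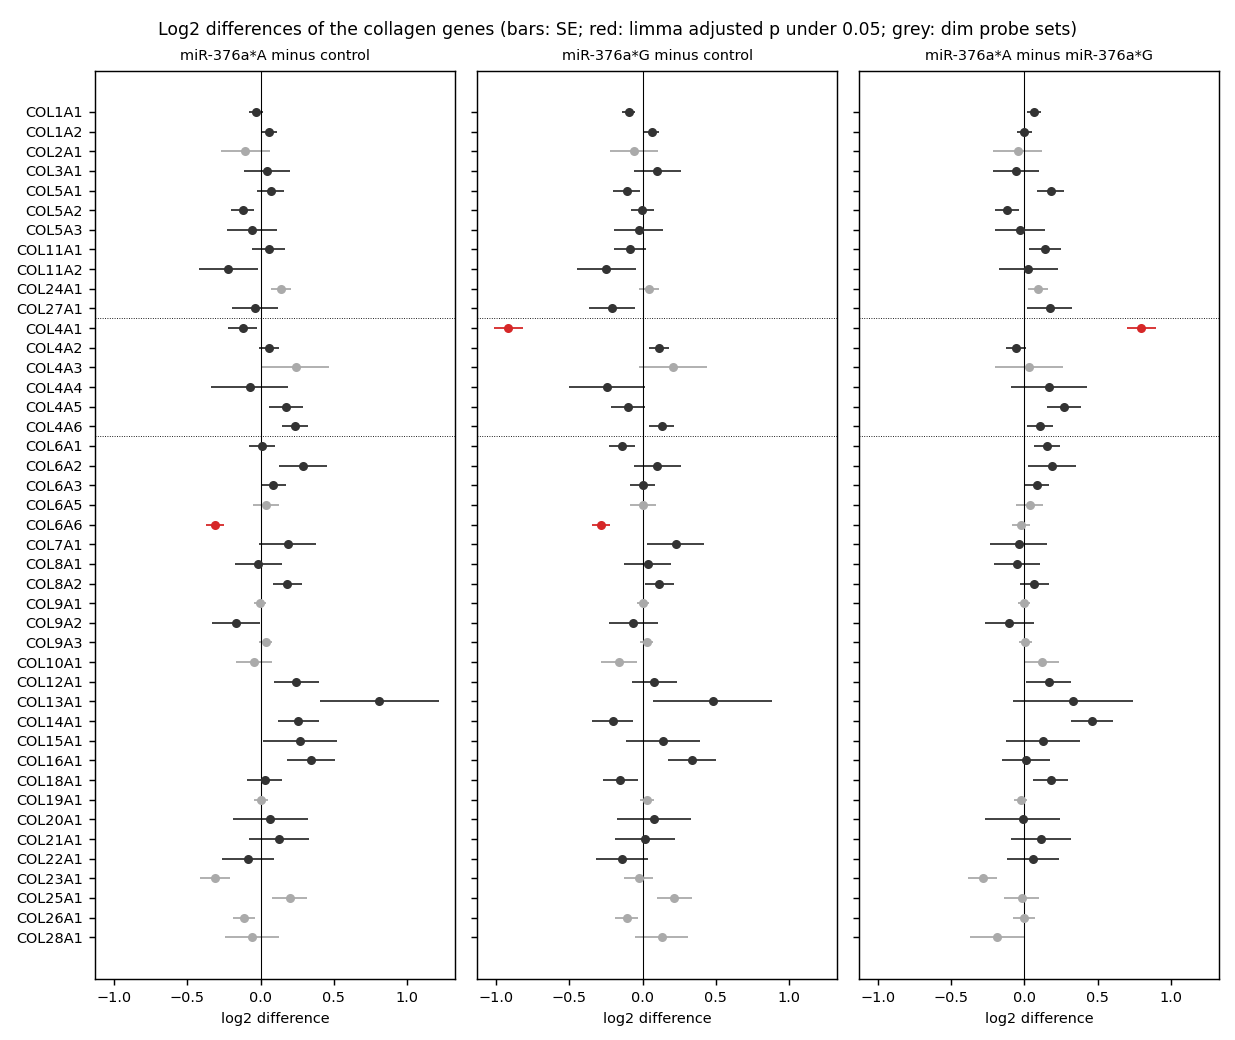
Log2 difference (horizontal, on log2(signal + 16)) of each of the 43 collagen genes in the comparisons of miR-376a*A with control, miR-376a*G with control and miR-376a*A with miR-376a*G. Points are the limma estimates and bars their SE; red marks adjusted p under 0.05, grey probe sets below the median, and dotted lines part fibrillar, basement membrane and other genes. COL4A1 stands at -0.92 and 0.80 in the panels that involve miR-376a*G and at -0.12 in the panel of miR-376a*A.

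Counting genes whose deposited signals did not overlap between the groups, 6 of 43 collagen genes separated miR-376a*A from control, where 16% of all genes did. For miR-376a*G against control the count was 6 of 43 against 17.7%, and between the forms it was 11 of 43 against 21.8%. These shares are near the backgrounds. Of the 11, 10 were at or above the median, of 30 such collagen genes, where 28.5% of all genes of that brightness separated the forms. In each of these 10 the miR-376a*A arrays were the higher ones: COL4A1, COL4A5, COL5A1, COL6A1, COL6A3, COL11A1, COL12A1, COL14A1, COL18A1 and COL27A1. Over all genes of that brightness 1700 of 3560 that separated the forms were higher with miR-376a*A. The remaining collagen gene was the dim COL23A1, a transmembrane collagen, which was lower with miR-376a*A (-0.28). Of the 11, only COL4A1 passed the threshold on all arrays. The genes were read on the same arrays, so they are not independent, and by the brightest probe set alone. The second probe sets of COL4A1 and COL14A1 also separated the forms. That of COL11A1 did not, with 40.3, 43.7 and 36.4 with miR-376a*A and 40.6, 31.2 and 36.6 with miR-376a*G. No common direction of the collagen genes is read from this.

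Some collagen genes lie next to each other in the genome with no other protein-coding gene of RefSeq (GRCh38.p14) starting between them, in 7 pairs, of which 4 had both genes at or above the median. For miR-376a*G against control these were COL4A1 and COL4A2 (-0.92 and 0.11), COL3A1 and COL5A2 (0.10 and -0.0016), COL6A1 and COL6A2 (-0.14 and 0.10), and COL4A6 and COL4A5 (0.13 and -0.10). As COL4A1 was the only collagen gene of that brightness past the threshold, no other of these 4 pairs could hold such a member. COL6A6, which passed, neighbours COL6A5 in a dim pair.

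**Figure D4:**
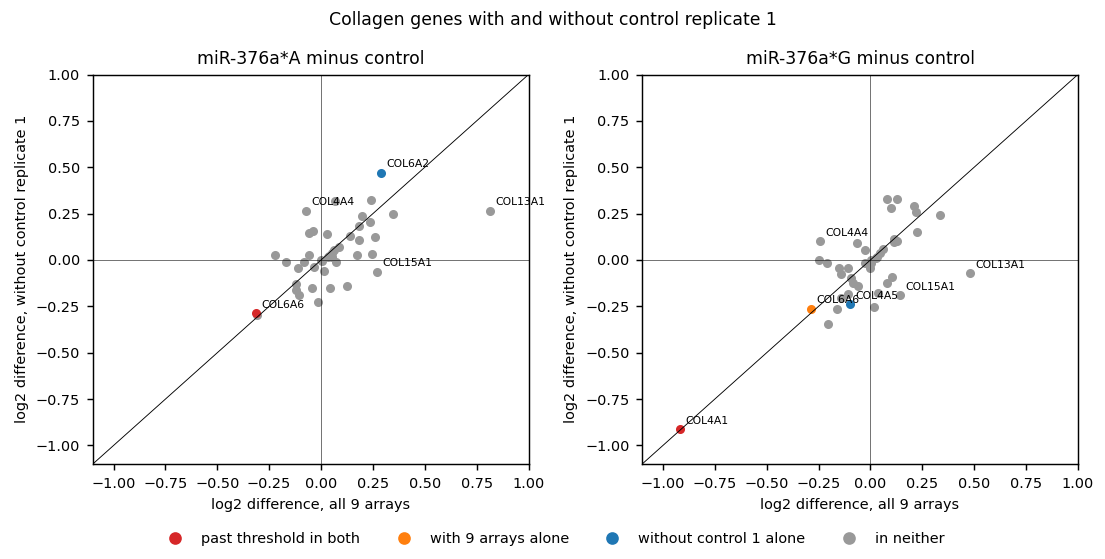
Log2 difference of each of the 43 collagen genes on all 9 arrays (horizontal) against that without control replicate 1 (vertical), for miR-376a*A and miR-376a*G against control. Red points passed the limma threshold in both fits, orange on 9 arrays alone, blue without control replicate 1 alone and grey in neither, and the diagonal marks equal values. COL4A1 with miR-376a*G lies on the diagonal (-0.92 and -0.91), while COL13A1 moves from 0.81 to 0.27 with miR-376a*A.

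The genes that make, carry, bind or cut collagens were listed by role. Of the chain modification and folding list, 18 of 19 genes were measured. For miR-376a*A against control, miR-376a*G against control and the forms 0, 1 and 1 passed, each higher. Over all genes 1.71%, 2.35% and 1.36% passed. Without control replicate 1 the counts were 1, 1 and 1, where 6.06%, 8.28% and 4.92% of all genes passed. FKBP14, a prolyl isomerase of the endoplasmic reticulum that assists procollagen folding, had signals of 728, 776 and 718 with miR-376a*G, 719, 752 and 733 with miR-376a*A and 440.4, 577 and 553 in control. All 6 miRNA arrays were above all control arrays. It rose by 0.47 with miR-376a*G (SE 0.09, limma adjusted p = 0.0369), and with miR-376a*A the difference was 0.45 (limma adjusted p = 0.0513). Without control replicate 1 it passed with both forms (0.36, limma adjusted p = 0.00741, and 0.35, limma adjusted p = 0.00973). Between the forms it was -0.01 (limma adjusted p close to 1).

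SERPINH1 (HSP47), the collagen-specific chaperone that escorts the triple helix, had signals of 1211, 1268 and 1308 with miR-376a*A, 873, 906 and 911 under miR-376a*G and 1296, 1101 and 949.9 in control. The forms did not overlap, and the control arrays spread between them. In miR-376a*A cells it exceeded its level in miR-376a*G cells by 0.47 (SE 0.07, limma adjusted p = 0.0148), and 0.45 without control replicate 1 (limma adjusted p = 0.00270). Against control the differences were 0.19 with miR-376a*A (limma adjusted p = 0.34) and -0.28 with miR-376a*G (limma adjusted p = 0.0979), so neither form was shown to differ from control. Like COL4A1, SERPINH1 was lower in miR-376a*G cells than in miR-376a*A cells.

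In the procollagen export (10 of 10 measured), cleavage and cross-linking (13 of 13), receptor (9 of 10), degrading protease (10 of 10), basement membrane partner (15 of 17) and fibril partner (13 of 13) lists 0 genes passed limma in any comparison. At an unadjusted limma p under 0.05 these lists held 0 to 3 genes each in a comparison, where 11.8%, 14.1% and 8.69% of all genes passed. Without control replicate 1, 0 to 2 genes of each passed the threshold, where 6.06%, 8.28% and 4.92% of all genes did. These percentages are for miR-376a*A against control, miR-376a*G against control and the forms. Past the threshold without that array were TRAPPC2, MIA2, SEC23A, ADAMTS2, ADAMTS14, MRC2, MMP2, TIMP3, LAMA5, THBS2 and DCN, each in at least 1 comparison. Of these, ADAMTS2 and LAMA5 are described as examples, picked after their values were seen. ADAMTS2, which cuts the amino-terminal propeptide of fibrillar procollagens, had signals of 172, 164 and 169 with miR-376a*A, 64.6, 80.5 and 102 under miR-376a*G and 65.7, 152 and 167 in control. Control replicate 1 lay with the miR-376a*G arrays and the other control arrays near those of miR-376a*A. The difference between the forms was 0.93 on all arrays (limma adjusted p = 0.23) and 0.93 without that array (limma adjusted p = 0.00338). LAMA5, a laminin chain of basement membranes, did not pass on all arrays. Without control replicate 1 it was above control by 0.66 with miR-376a*A (limma adjusted p = 0.00164) and by 0.35 in miR-376a*G cells (limma adjusted p = 0.0253), and the forms differed by 0.31 (limma adjusted p = 0.0370). On all arrays these differences were 0.44, 0.13 and 0.31 (limma adjusted p = 0.34, 0.80 and 0.75).

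Of 15 genes that act on the transcription of collagen genes, all measured, 1 passed for miR-376a*A against control and 0 in the other comparisons, where 2 and 3 had an unadjusted limma p under 0.05. Over all genes 1.71%, 2.35% and 1.36% passed, and 14.1% and 8.69% had such an unadjusted limma p in the latter comparisons. Without control replicate 1 the counts were 3 for miR-376a*A against control (TGFB1, TGFBR2 and SMAD2), 4 for miR-376a*G against control (these 3 and RUNX2) and 2 between the forms (RUNX2 and TWIST2), where 6.06%, 8.28% and 4.92% of all genes passed. In that fit TGFB1, the ligand, and TGFBR2 were higher with each form than in control, and SMAD2, a transducer of the signal, was lower (-0.38 and -0.49, miR-376a*A first). TGFBR2, the type II receptor of TGF-β, an inducer of collagen genes, had signals of 506, 447 and 529 with miR-376a*A, 400.4, 433 and 504 under miR-376a*G and 243, 307 and 338 in control. All miRNA arrays were above the control arrays. It rose by 0.69 with miR-376a*A (SE 0.12, limma adjusted p = 0.0188), and the difference was 0.53 with miR-376a*G (limma adjusted p = 0.0503; 0.44 and 0.0321 without control replicate 1) and 0.16 between the forms (limma adjusted p = 0.89).

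**Figure D5:**
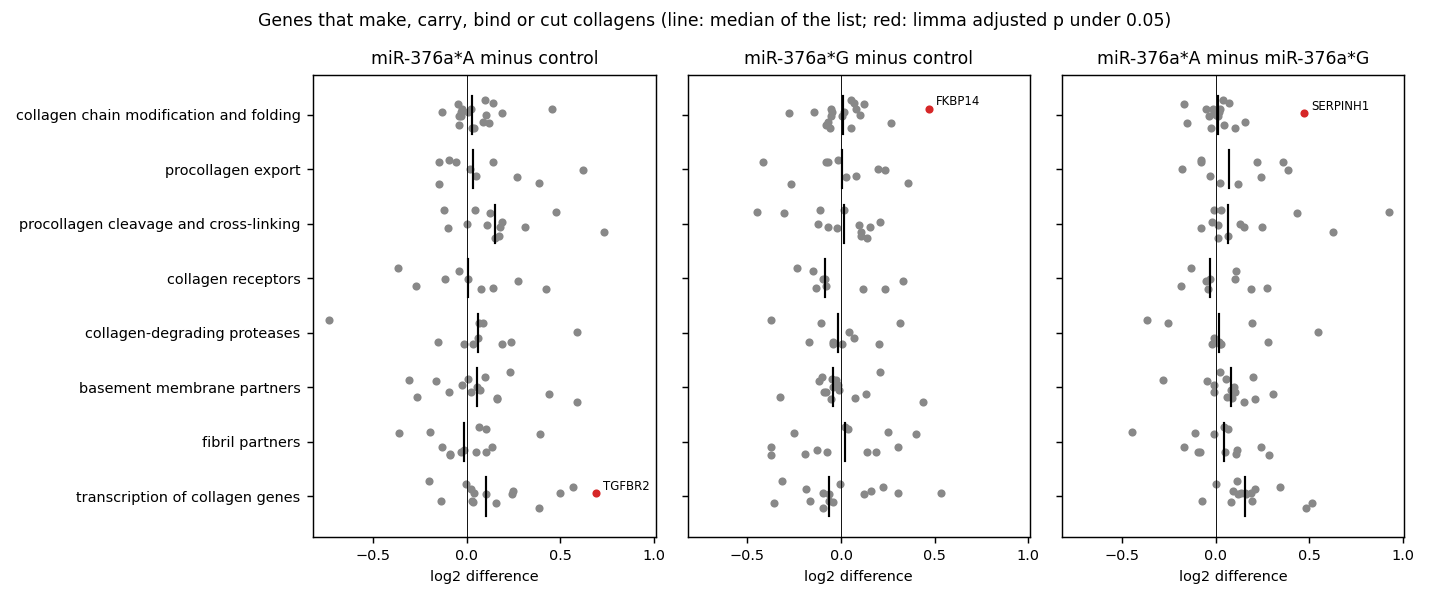
Log2 difference (horizontal) of the genes in 8 lists by their role around collagen, for each comparison. Each point is a gene, shifted vertically at random for legibility, the black line is the median of its list, and red points passed limma at an adjusted p under 0.05. FKBP14 (0.47 with miR-376a*G), SERPINH1 (0.47 between the forms) and TGFBR2 (0.69 with miR-376a*A) are the points past the threshold.

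Markers of cell types that make collagen were set beside these values. The mesenchymal marker CDH2 (N-cadherin) rose with both forms: its signals were 980.3, 949 and 1011 with miR-376a*A, 986, 1031 and 873 under miR-376a*G and 216, 489 and 460.4 in control. The differences were 1.34 (limma adjusted p = 0.0210) and 1.33 (limma adjusted p = 0.0195). The other 6 mesenchymal markers did not pass. The summed signal of the 7 was 3808 to 4205 with miR-376a*A, 3635 to 3967 with miR-376a*G and 3013 to 4296 in control, with overlap.

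The 5 endothelial markers, of a cell type rich in COL4A1, summed to 149 to 175 with miR-376a*A, 129 to 171 with miR-376a*G and 171 to 215 in control; the defining CDH5 was at 2.68 to 12.3. The sums of the 5 neuron and oligodendrocyte markers measured were 135 to 165, 141 to 168 and 172 to 184 in the same order, and those of the 4 immune markers 40.1 to 48.3, 40.7 to 51.4 and 37.1 to 65.5. The 6 epithelial markers summed to 1117 to 1350, 1268 to 1430 and 1108 to 1868, nearly all of it from KRT18, with EPCAM at 0.350 to 7.86. The immune marker PTPRC passed between the forms (-0.44, limma adjusted p = 0.0325) at signals of 2.60 to 12.2. The highest endothelial sum with miR-376a*G (170.672) fell just short of the lowest control sum (170.72), and the miR-376a*A sums overlapped those of control. This small gap is not read as a difference between the forms. The neuron and oligodendrocyte sums were below all control sums with both forms. Singly, the endothelial markers went both ways for miR-376a*G against control, and none passed the threshold. VWF (-0.58), PECAM1 (-0.45) and CDH5 (-0.24) were lower, and TEK (0.35) and KDR (0.12) were higher. The part of the endothelial markers in the COL4A1 difference was not tested.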

How the data were processed

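Per the labels' protocols, the RNA was amplified and carried a Biotin-ULS label; the submitters' processing notes list GCOS 1.4.0.036. The deposited values are linear signal intensities of 54675 probe sets on 9 arrays. The mean of each array after trimming 2% at each end was 100.01 to 100.013, so the deposited intensities had been scaled to a common level, and a change common to most transcripts would not be seen. How probes were summarised is not given in the sources used here.

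Signals were turned into log2(signal + 16) and quantile normalized. Gene symbols came from the platform annotation (41097 probe sets had 1 symbol, 1801 several, 11777 none), 41043 matched a RefSeq gene ID, 0 symbols changed, and the brightest probe set represented each of 19775 genes. Groups were fitted together with limma 3.58.1 in R 4.3.3 (lmFit, eBayes with an intensity trend, no block), with p-values adjusted by Benjamini-Hochberg over all genes at 0.05. Errors are SE of log2 differences or SD over 3 arrays, whose number limits the precision. The procedure was also run on simulated data, with independent values for each gene and changes added to some bright genes in the miR-376a*G group. That simulation held no array standing apart as control replicate 1 does, so it does not cover this feature of the data, and its outcome is not given here.

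Collagen genes were named if they passed the threshold or reached the probe set median (log2 5.17), along with the brightest of the rest, and of the other 14 lists the members that passed. The members and lists were chosen with earlier results of these data known. Alternatives changed the pseudocount, normalization, dim filter, probe set choice, arrays fitted, weights, trend, block and each replicate in turn.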

Additional observations from a re-analysis of the deposited data

How the results depend on the processing

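COL4A1 kept its direction and passed limma in all 20 alternatives both for miR-376a*G against control (-1.001 to -0.80, adjusted p 0.000495 to 0.0304) and between the forms (0.68 to 0.87, adjusted p 0.000225 to 0.0339), and passed in 0 of 20 for miR-376a*A against control (adjusted p 0.392 to 0.919). These 20 comprised the 19 settings used throughout and a further setting used for COL4A1 alone. The smallest of the differences that passed, -0.80 and 0.68, equal those of the second COL4A1 probe set, which was examined after the first. The further setting is not counted as support beyond the 19. The counts of genes past the threshold moved more. They are given for miR-376a*A against control, miR-376a*G against control and the forms, in that order. Over all genes, 339, 464 and 269 genes passed. With array weights the counts were 960, 1279 and 1111, with only the 6 arrays compared 112, 104 and 987, and with the replicate block 188, 244 and 155. Leaving out each array in turn gave 128 to 1199, 172 to 1637 and 116 to 972, the highest counts each without control replicate 1.

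Of the collagen genes 1, 2 and 1 passed. Pseudocounts of 1 and 64, median centring, no further normalization, leaving out dim probe sets, the mean of all probe sets, no trend, the 6 arrays compared and the replicate block each gave 0 and 1 for the comparisons with control, since COL6A6 no longer passed. Between the forms array weights and the 6 arrays compared each gave 3 collagen genes. Leaving out each array in turn gave 0 to 2, 1 to 2 and 1 to 3. Without dim probe sets COL6A6 could not be tested. Of 1767 single gene values under alternatives, 31 lost a call, all of COL6A6, 8 gained one (COL6A2, COL4A5 and COL14A1), 0 called values changed sign and 110 values uncalled under both settings did. The cause was not tested.

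Same-numbered arrays of miR-376a*G and control deviated together with r of 0.0931 to 0.116 over all genes, those of miR-376a*A and control with -0.24 to 0.02 and those of the forms with -0.06 to -0.04, and not every pair exceeded 0.1 (over genes at or above the median, the miR-376a*G and control pairs had 0.123 to 0.189), so the numbers were not taken to pair the samples. The replicate block gave 0, 1 and 1 collagen genes, COL4A1 in both of the latter. The intensity over background limits what the 13 dim collagen genes can show.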
